A study of Homo sapiens with 36 samples.

Results

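Opposing ligands of the liver X receptors (LXR) were set against each other in BxPC-3, an established human pancreatic ductal adenocarcinoma line of epithelial origin. The comparison took the 3 libraries of cells given 3A4, which the labels call an LXR inverse agonist, against the 3 libraries of cells given GW3965, a synthetic LXR agonist. These are 6 of the 36 RNA sequencing libraries of the series, chosen by their labels alone, and all genes were compared. Each ligand was given at 10 µM for 48 h in RPMI medium with 10% fetal bovine serum. The 3 BxPC-3 libraries given the vehicle DMSO served to place each ligand. Another 3 BxPC-3 libraries, given the inverse agonist 1E5 at the same dose and time, entered the fit to estimate the spread. The same pair of ligands in the lines MIA PaCa-2 and PANC-1 served to ask which responses depended on the line. 3A4 is known here only by its code name. BxPC-3 is 1 line from 1 tumour, known for its loss of SMAD4 and CDKN2A, and both genes had 0 counts in all 6 libraries.

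LXRα (gene NR1H3) and LXRβ (gene NR1H2) are nuclear receptors for oxysterols that bind DNA as partners of the retinoid X receptors. An agonist draws coactivators to the receptor, while an inverse agonist favours corepressors and lowers the basal output of its target genes. The best known targets export cholesterol from the cell (ABCA1, ABCG1), limit cholesterol uptake (MYLIP) and drive fatty acid synthesis (SREBF1, FASN, SCD). LXR agonists are also known, mainly from macrophages, to lower the expression of inflammatory genes.

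The 3A4 libraries held 24804200, 23240513 and 19606612 counts, and the GW3965 libraries held 24055333, 21298578 and 20843575 counts. Levels below are CPM, counts per 1000000 of the scaled library total. GW3965 replicate 1 stood apart from its group: the chi-square per degree of freedom between counts was 58.8 and 59.4 for its pairs with the other GW3965 libraries, 28.3 between those, and 27.8 to 32.6 among the 3A4 libraries. The share of counts from mitochondrially encoded genes was 7.43% to 7.75% in the 3A4 libraries and 7.9% to 9.02% in the GW3965 libraries, and the part of this gap in the results was not tested. All 12 epithelial markers were detected, including EPCAM, CDH1 and KRT19, and by edgeR's test none differed between the ligands (2 at an unadjusted p under 0.05, 0 by DESeq2 and 0 by limma-voom). CLDN4 was at 2.28 CPM in 1 of the 3A4 libraries and at up to 226 CPM in the others, against 283 to 437 CPM with GW3965. Of 23 markers of leukocytes, endothelium, fibroblasts, acinar, islet and other cells, 9 had no count in the 6 libraries, PTPRC, COL1A2, PDGFRB and ALB among them. Their summed level was 49.4 to 68.7 CPM with 3A4 and 41.4 to 50.4 CPM with GW3965. Of the 11 with enough counts for edgeR's test none passed it, 5 had an unadjusted p under 0.05, 2 were called by DESeq2 and 1 by limma-voom. CD68 had 18.3 to 21.7 CPM with 3A4 and 6.50 to 12.9 CPM with GW3965 (adjusted p = 0.0502), and CDH5 had 12.8 to 20.9 CPM with 3A4 and 6.01 to 11.1 CPM with GW3965 (adjusted p = 0.0916), while COL3A1 had 0.103 to 0.408 CPM with 3A4 and 0.857 to 2.23 CPM with GW3965 (adjusted p = 0.14). The log2 fold changes of VWF, ACTA2, PECAM1 and COL1A1 were -0.83, -0.68, -0.35 and -0.31, and the part of these markers in the results was not tested.

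3A4 and GW3965 left BxPC-3 cells with widely different transcript levels. Of 18042 genes tested, 1175 (6.51%) differed at an adjusted p under 0.05 by edgeR's quasi-likelihood test with Benjamini-Hochberg adjustment. With 3A4, 558 of them (3.09% of genes tested) were higher and 617 (3.42%) were lower than with GW3965, and 419 differed at least 2-fold, 225 of them higher and 194 lower. Genes of lipid synthesis and storage, of the amino acid stress response and keratins were among those lower with 3A4. Interferon-response genes, chemokines and mucosal genes were among those higher with 3A4. The median log2 fold change of all genes was 0.01, and the value range of the 3 libraries did not overlap between the ligands for 1171 of the 1175 genes, against 28.7% of all genes tested. The called genes included 1051 that code for protein, 32 long intergenic RNAs, 49 pseudogenes and 19 antisense genes. These pseudogenes and antisense genes, and 278 called genes that overlap another coding gene in the annotation, are less certain, because the counting may split or share their reads. The number of calls depended on single libraries: it was 447, 503 and 482 without 3A4 replicates 1, 2 and 3, and 1065, 363 and 508 without GW3965 replicates 1, 2 and 3. Where a gene is said to have lost its call, the adjusted p beside it is the highest over the 13 alternatives tried, which can be another one than those named. A core of 260 genes was called in the fit of all BxPC-3 libraries and in each fit that left out 1 of the 6.

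**Figure D1:**
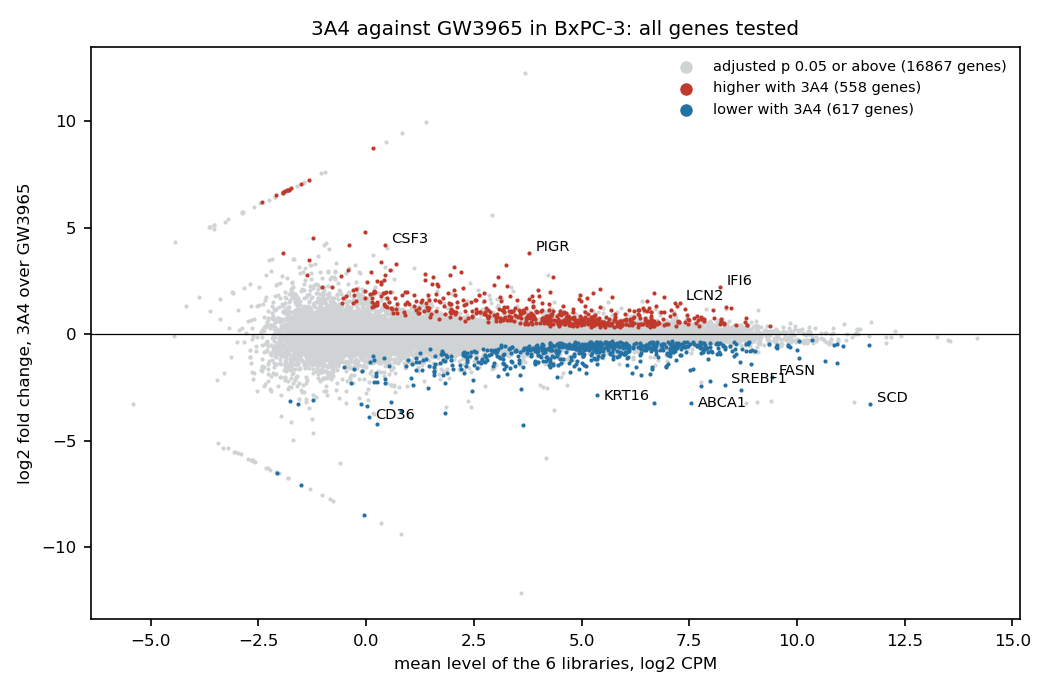
Log2 fold change of 3A4 over GW3965 (vertical axis) against the mean level of the 6 libraries in log2 CPM (horizontal axis) for the genes tested in BxPC-3. Each point is a gene, the 558 called higher with 3A4 are red, the 617 called lower are blue and the rest are grey. Points on the slanted lines at the left have no count in 1 of the groups, so that their fitted fold changes are not measured sizes.

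Neither LXR gene passed the test between the ligands. NR1H2, which codes for LXRβ, had 45.9, 38.9 and 45.1 CPM with 3A4, against 43.04, 58.0 and 67.4 CPM with GW3965 (log2 fold change -0.37 ± 0.14 SE, adjusted p = 0.133). NR1H3, which codes for LXRα and is itself an LXR target in some human cells, had 2.68, 3.59 and 4.44 CPM with 3A4, against 3.42, 7.48 and 5.75 CPM with GW3965 (log2 fold change -0.64 ± 0.33 SE, adjusted p = 0.256). Both sets of values overlapped between the ligands. NR1H2 passed the test without GW3965 replicate 1, which was the lowest library of its group. Of 15 tested receptors, partners and coregulators, NRIP1 was the 1 that passed the test (6.67%, near the 6.51% of all genes). This corepressor, also called RIP140, was higher with 3A4 (log2 fold change 1.03 ± 0.25 SE, adjusted p = 0.032). NRIP1 lost its call when any 1 of the 6 libraries was left out (adjusted p up to 0.112). The median log2 fold change of the 15 was -0.07.

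Several direct LXR targets, ABCA1, SREBF1, SCD and MYLIP among them, were lower with 3A4. Of 22 genes on the list, 18 passed the filter on low counts, and 8 of those 18 (44.4%, against 3.42% of all genes) were lower with 3A4 while 0 were higher. The median log2 fold change of the 18 was -0.67, against 0.01 for all genes. The number called lower was 7 or 8 whichever library was left out. The list was drawn up with these data already examined, so its count describes these libraries and is no independent evidence of direction.

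ABCA1 (ENSG00000165029, chr9:104781002-104928237, minus strand) codes for the membrane pump that loads cholesterol onto apolipoprotein A-I. It had 26.1, 37.9 and 44.8 CPM with 3A4, against 355, 327 and 329 CPM with GW3965. The 3A4 libraries lay far below every GW3965 library, with means of 36.3 ± 9.45 CPM with 3A4 and 337 ± 15.9 CPM with GW3965 (SD, n = 3 each). The log2 fold change was -3.22 ± 0.30 SE, a 9.301-fold lower level with 3A4 (adjusted p = 0.00055). ABCA1 had 32.2, 47.6 and 54.9 CPM with DMSO, which overlapped the 3A4 libraries, and its log2 fold changes were -0.31 for 3A4 over DMSO (adjusted p = 0.689) and 2.91 for GW3965 over DMSO (adjusted p = 0.00306).

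SREBF1 (ENSG00000072310, chr17:17810399-17837002, minus strand) codes for the transcription factor SREBP-1, which turns on the enzymes of fatty acid synthesis. It had 91.2, 109 and 108 CPM with 3A4, against 465, 616 and 534 CPM with GW3965 (log2 fold change -2.39 ± 0.25 SE, adjusted p = 0.000655). Its groups did not overlap, and the DMSO libraries, at 156, 221 and 165 CPM, lay between them. SREBF1 passed the test for GW3965 over DMSO (adjusted p = 0.0112) and not for 3A4 over DMSO (adjusted p = 0.234). SCD (ENSG00000099194, chr10:100347124-100364834, plus strand), the desaturase that makes oleate, had 496, 636 and 740.4 CPM with 3A4, against 5246, 6586 and 6304 CPM with GW3965 (log2 fold change -3.28 ± 0.37 SE, adjusted p = 0.000951). The ligands stood on opposite sides of the vehicle, which had 1334, 1857 and 1699.7 CPM of SCD. The difference from DMSO passed the test with GW3965 (adjusted p = 0.0241) and not with 3A4 (adjusted p = 0.179). FASN, the fatty acid synthase, had 281, 233 and 297 CPM with 3A4, against 888, 1033 and 1369.9 CPM with GW3965 (log2 fold change -2.02 ± 0.20 SE, adjusted p = 0.000582). All 3 FASN values with 3A4 were below all 3 with GW3965.

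MYLIP, a ubiquitin ligase that limits cholesterol uptake, had 14.02, 19.4 and 20.2 CPM with 3A4, against 46.9, 55.97 and 50.2 CPM with GW3965 (log2 fold change -1.51 ± 0.20 SE, adjusted p = 0.00306). LPCAT3, which puts polyunsaturated chains into phospholipids, had 86.5, 82.8 and 91.6 CPM with 3A4, against 167, 233 and 211 CPM with GW3965 (log2 fold change -1.23 ± 0.14 SE, adjusted p = 0.000939). Neither gene's values overlapped between the ligands. PLTP, which transfers phospholipids between lipoproteins, was also lower (-0.83, adjusted p = 0.0043). SREBF1 and LPCAT3 overlap coding genes on the opposite strand, whose reads the counting may share. PLTP lost its call in 1 fit of all 36 libraries (adjusted p up to 0.0845).

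ABCG1, the other classical cholesterol exporter, did not pass the test. It had 4.55, 8.16 and 4.08 CPM with 3A4, against 6.84, 13.2 and 6.504 CPM with GW3965 and 9.13, 11.8 and 6.25 CPM with DMSO. The values of the ligands overlapped, and the log2 fold change was -0.66 ± 0.36 SE (adjusted p = 0.294). Other targets that were not called included SCARB1 at -0.59, ABCC3 at -0.69 and APOE at 0.33.

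**Figure D2:**
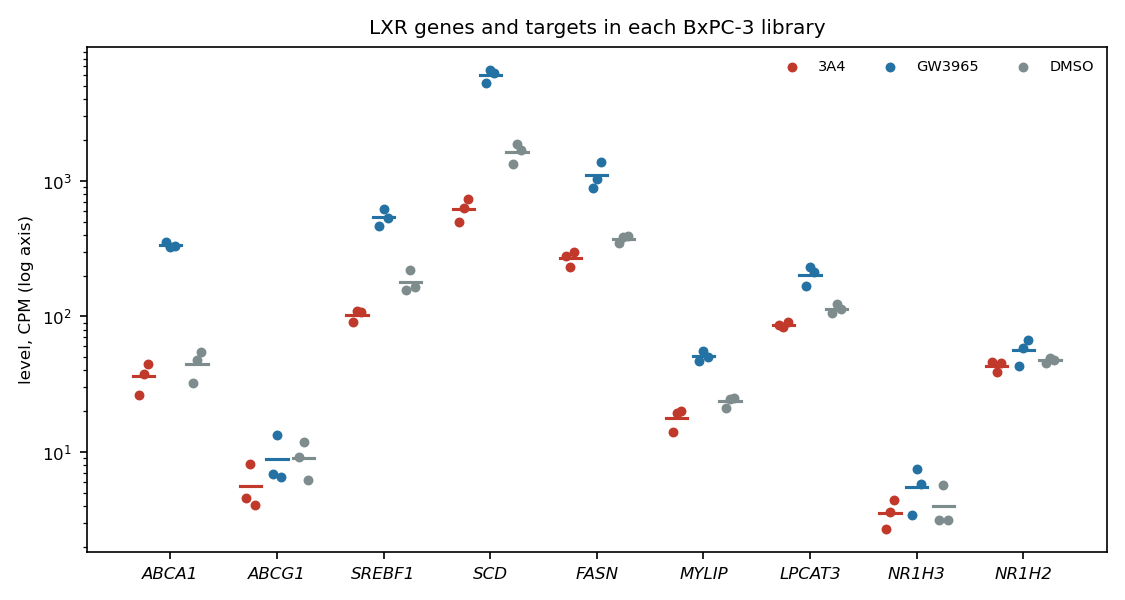
Level in CPM on a log axis of LXR targets and both LXR genes in each BxPC-3 library, with 3A4 in red, GW3965 in blue and DMSO in grey. Points are libraries and bars are means of 3. ABCA1, SREBF1, SCD, FASN, MYLIP and LPCAT3 are lower in every 3A4 library than in every GW3965 library, while the ABCG1, NR1H3 and NR1H2 values overlap.

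Fatty acid synthesis had the most calls of the lipid lists. Of 29 genes tested on that list, 16 were lower and 1 was higher with 3A4. Over all genes tested 3.42% were lower and 3.09% higher. The list's median log2 fold change was -0.54. FASN counts in this list and among the LXR targets, and SCD's -3.28 is the lowest value of both, so their counts are not separate. Calls lower in this list numbered between 11 and 14 when 1 library was left out. ME1, the cytosolic malic enzyme that supplies NADPH for lipid synthesis, had among the smallest p-values of the whole comparison. It had 32.3, 33.6 and 31.3 CPM with 3A4, against 75.4, 73.9 and 71.9 CPM with GW3965 (log2 fold change -1.19 ± 0.09 SE, adjusted p = 0.000139). Its 3A4 libraries all lay below its GW3965 libraries. ACACA, which makes malonyl-CoA, had a log2 difference of -1.18 (adjusted p = 0.000618), and ACSS2, which activates acetate, one of -1.55 (adjusted p = 0.00321). The citrate carrier SLC25A1 (-0.64, adjusted p = 0.0135) and MID1IP1, an activator of ACACA (-0.98, adjusted p = 0.00533), were lower too. SLC25A1 lost its call in 1 fit of all 36 libraries (adjusted p up to 0.0794).

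FADS3, FADS1 and the acyl-CoA synthetases ACSL1, ACSL3 and ACSL4 were among the lower members. FADS3, a member of the fatty acid desaturase family, had 14.9, 13.3 and 16.1 CPM with 3A4, against 41.2, 54.6 and 42.8 CPM with GW3965 (log2 fold change -1.64 ± 0.14 SE, adjusted p = 0.000485). The groups of FADS3 were fully apart. FADS1 (-0.78, adjusted p = 0.0144) was lower as well, whereas FADS2 at -0.47 did not pass the test. ACSL1, which activates long-chain fatty acids, had 28.96, 36.01 and 39.3 CPM with 3A4, against 112, 149 and 131 CPM with GW3965 (log2 fold change -1.91 ± 0.24 SE, adjusted p = 0.00208), and ACSL3 (-1.02) and ACSL4 (-0.58) were also called lower. LPIN1, a phosphatidate phosphatase, was lower (-1.53, adjusted p = 0.0166). GPAM, which starts glycerolipid synthesis and is a known target of SREBP-1, was the member that was higher with 3A4 (0.47 ± 0.10 SE, adjusted p = 0.0234). ELOVL6, DGAT1 and ACACB had values of -0.01, 0.00 and 0.37 and were not called. FADS1 and ACSL4 lost their calls without 3A4 replicate 1 or GW3965 replicate 2 (adjusted p up to 0.0786). LPIN1 lost its call without 3A4 replicate 2 or 3 or GW3965 replicate 2 (adjusted p up to 0.0582). GPAM lost its call without 3A4 replicate 1, 2 or 3 or GW3965 replicate 2 or 3 (adjusted p up to 0.141).

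Genes of cholesterol synthesis and uptake, known targets of SREBP-2, were lower for 9 of 28 members and higher for 0. These 9 were 32.1% of those tested, against 3.42% of all genes, and the median log2 fold change was -0.40. The count of lower calls was between 4 and 8 when 1 library was left out, at 4 without 3A4 replicate 1 or 3A4 replicate 3 or GW3965 replicate 2 and 5 without 3A4 replicate 2 or GW3965 replicate 3. SREBF2, which codes for SREBP-2, had 162, 173 and 154 CPM with 3A4, against 271, 291 and 306 CPM with GW3965 (log2 fold change -0.83 ± 0.12 SE, adjusted p = 0.00344). SREBF2 was lower in every 3A4 library than in any GW3965 library. LSS, the lanosterol synthase, was lower with 3A4, with -1.54 as its log2 fold change (adjusted p = 0.00276). INSIG1, which holds SREBP proteins in the endoplasmic reticulum, had a log2 fold change of -1.88 (adjusted p = 0.0126). INSIG1 lost its call without 3A4 replicate 1 (adjusted p up to 0.0533). The promoter of SREBF2, a gene on which SREBP-2 itself is known to act, is shown because it held a match to the letters searched. It covers chr22:41832855-41833154 on the plus strand of GRCh38.p14 (RefSeq), 250 bases before to 50 bases after the gene's start, with 1 match to the sterol regulatory element letters TCACNCCAC, searched on both strands, in capitals.
SREBF2: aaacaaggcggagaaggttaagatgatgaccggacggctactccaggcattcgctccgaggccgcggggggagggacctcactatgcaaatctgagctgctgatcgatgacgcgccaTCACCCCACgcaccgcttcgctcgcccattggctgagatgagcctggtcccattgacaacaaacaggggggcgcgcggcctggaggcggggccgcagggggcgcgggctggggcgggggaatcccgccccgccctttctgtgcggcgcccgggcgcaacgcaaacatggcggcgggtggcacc
Of 21 cholesterol genes with a promoter in the table this was the 1 that held these letters (4.76%), against 1.15% of 27305 promoters in all. The 12 LXR targets with a promoter held no match to the repeat that LXR is known to bind, 2 copies of AGGTCA with any 4 bases between them, which occurred in 0.0183% of all promoters.

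Some genes of fatty acid oxidation, lipid droplets and other known targets of the PPAR receptors were lower with 3A4, PDK4 and CD36 among them. Of 28 such genes, 23 were tested, and 10 (43.5%, against 3.42% of all genes) were lower and 0 higher. The median log2 fold change was -0.41. The number called lower was between 4 and 7 when 1 library was left out, at 4 without 3A4 replicate 1 or 3A4 replicate 2, 5 without GW3965 replicate 2 or GW3965 replicate 3 and 6 without 3A4 replicate 3. PDK4, the kinase that shuts pyruvate dehydrogenase, had 3.396, 3.96 and 3.15 CPM with 3A4, against 18.2, 26.7 and 16.99 CPM with GW3965 (log2 fold change -2.56 ± 0.42 SE, adjusted p = 0.00711). PDK4 had 2.17, 4.32 and 5.06 CPM with DMSO, values on both sides of those with 3A4. CD36, a fatty acid transporter, had 0.0799, 0.285 and 0 CPM with 3A4, against 1.62, 2.604 and 1.66 CPM with GW3965 (log2 fold change -3.89 ± 0.73 SE, adjusted p = 0.0135). CD36 lost its call without 3A4 replicate 1 and in 1 fit of all 36 libraries (adjusted p up to 0.0873). CD36 overlaps a coding gene on the opposite strand. ANGPTL4, a secreted inhibitor of lipoprotein lipase, had a log2 difference of -1.30 (adjusted p = 0.00815), and the lipid droplet coat protein PLIN2 one of -0.71 (adjusted p = 0.0199). ANGPTL4 lost its call in 1 fit of all 36 libraries (adjusted p up to 0.0821). PLIN2 lost its call without 3A4 replicate 1 or 2 or GW3965 replicate 2 or 3 (adjusted p up to 0.0706). PLIN2 was above DMSO with both ligands, with log2 fold changes of 0.51 for 3A4 over DMSO (adjusted p = 0.228) and 1.23 for GW3965 over DMSO (adjusted p = 0.00355).

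In the integrated stress response the factor ATF4 turns on genes of amino acid supply, and ATF4, PSAT1 and DDIT4 were among its genes lower with 3A4. Of 28 genes tested, 11 (39.3%, against 3.42% of all genes) were lower and 0 higher, and their median log2 fold change was -0.53. Calls lower in this list numbered between 5 and 10 when 1 library was left out, at 5 without GW3965 replicate 2, 6 without 3A4 replicate 2 and 7 without 3A4 replicate 3. ATF4 had 280.1, 277 and 304 CPM with 3A4, against 465, 493 and 447 CPM with GW3965 (log2 fold change -0.71 ± 0.09 SE, adjusted p = 0.00274). The groups of ATF4 did not overlap. PSAT1, an enzyme of serine synthesis, had 46.7, 44.4 and 55.5 CPM with 3A4, against 168, 165 and 116 CPM with GW3965 (log2 fold change -1.62 ± 0.22 SE, adjusted p = 0.00321). PHGDH, the first enzyme of that path (-0.87, adjusted p = 0.0123), and SHMT2, the mitochondrial serine hydroxymethyltransferase (-0.56, adjusted p = 0.0111), were lower as well. DDIT4, an inhibitor of mTORC1 also called REDD1, had a log2 fold change of -1.40 (adjusted p = 0.00219), the pseudokinase TRIB3 one of -1.13 (adjusted p = 0.0155) and JDP2, a bZIP factor, one of -1.57 (adjusted p = 0.00547). DDIT3, ATF3 and PPP1R15A, stress factors of the same response, had values of 0.21, 0.44 and 0.48 and were not called. PHGDH lost its call without GW3965 replicate 2 (adjusted p up to 0.0502). TRIB3 lost its call without 3A4 replicate 2 or 3 or GW3965 replicate 2 (adjusted p up to 0.0592).

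The amino acid transporters SLC7A11, SLC38A2, SLC1A4 and SLC6A9 were lower with 3A4. On the list of amino acid transporters and tRNA synthetases, 7 of 28 (25%, against 3.42% of all genes) were lower and 0 higher. The median log2 fold change was -0.29. The count of lower calls was between 4 and 7 when 1 library was left out, at 4 without 3A4 replicate 2 or 3A4 replicate 3 or GW3965 replicate 2. SLC7A11, the cystine and glutamate exchanger, had 78.5, 106 and 73.8 CPM with 3A4, against 328, 315 and 196 CPM with GW3965 (log2 fold change -1.70 ± 0.25 SE, adjusted p = 0.0043). SLC38A2, a transporter of small neutral amino acids, had 645, 726 and 611 CPM with 3A4, against 1656, 1451 and 1270.0 CPM with GW3965 (log2 fold change -1.14 ± 0.13 SE, adjusted p = 0.00092). In both cases the 3A4 libraries were all lower. SLC1A4 (-1.04, adjusted p = 0.00664) and the glycine transporter SLC6A9 (-1.04, adjusted p = 0.00438) were lower, and SLC6A9 lost its call in 1 fit of all 36 libraries. No gene of the unfolded protein response passed edgeR's test: of 29 chaperones and related genes 0 were called, their log2 fold changes ran from -0.66 to 0.55 and the median was 0.02. Of these genes 3 had an unadjusted p under 0.05, 1 was called by DESeq2 and 0 by limma-voom. Targets of the antioxidant factor NRF2 were lower for 5 of 30 and higher for 1, beside 3.42% and 3.09% of all genes. Their median was -0.35, and SLC7A11 counts in both lists. Among them TKT, the transketolase of the pentose phosphate path, had a log2 fold change of -0.82 (adjusted p = 0.00617). The number called lower was between 2 and 5 when 1 library was left out, at 2 without 3A4 replicate 1 and 3 without 3A4 replicate 2 or GW3965 replicate 2.

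**Figure D3:**
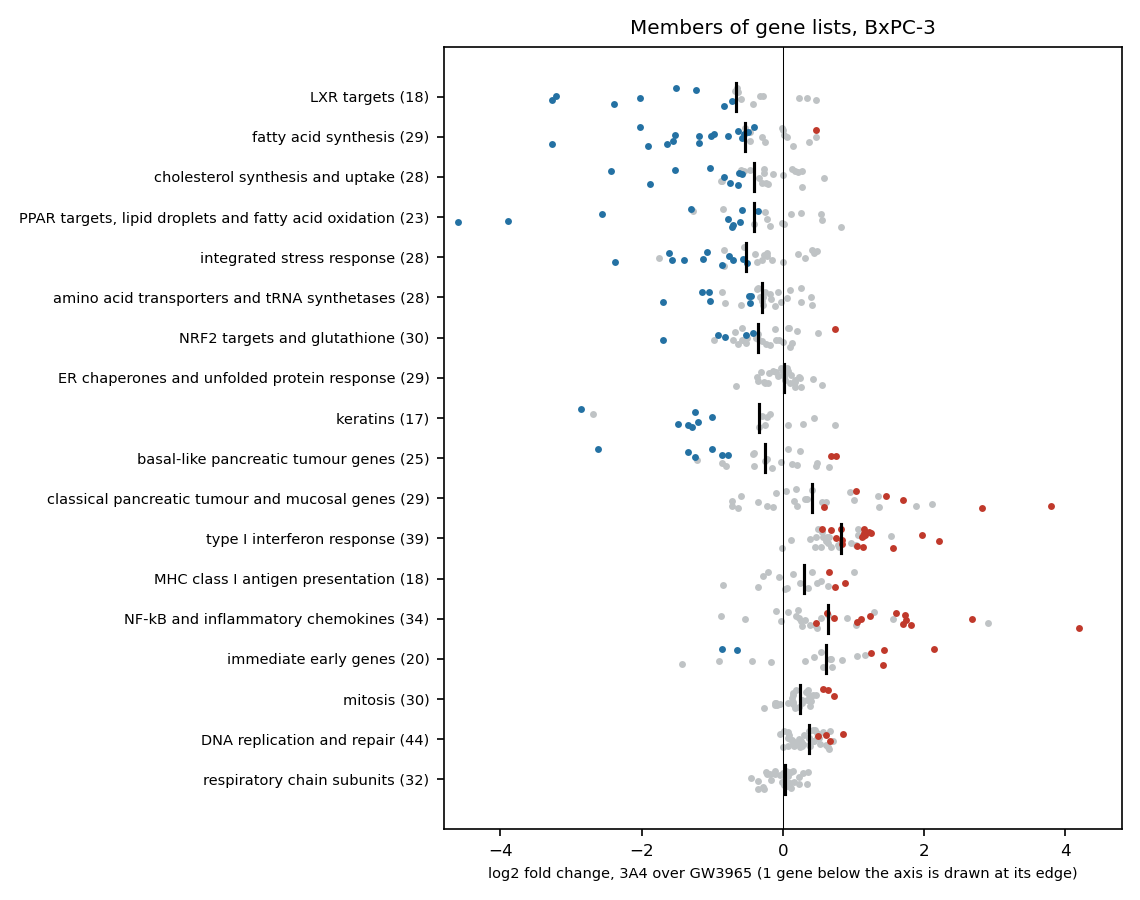
Log2 fold change of 3A4 over GW3965 (horizontal axis) for the tested members of 18 gene lists, with the number tested in brackets. Each point is a gene, blue where called lower with 3A4, red where called higher and grey otherwise, and the vertical bars are list medians. The lists of lipid, stress and keratin genes have medians below 0, and the interferon list has the highest median, 0.82.

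The type I interferon response was the list with the most genes higher in 3A4 cells than in GW3965 cells. Interferons act through a complex that holds STAT2 and IRF9 and binds interferon-stimulated response elements in the promoters of antiviral genes. Of 40 such genes 39 were tested, 18 (46.2%, against 3.09% of all genes) were higher with 3A4 and 0 were lower. Their median log2 fold change was 0.82, and 38 of the 39 had a positive value. For 29 of the 39 every 3A4 library was above every GW3965 library, as it was for 14.8% of all genes. Calls higher in this list numbered between 7 and 17 when 1 library was left out, at 7 without 3A4 replicate 2 or GW3965 replicate 3. The libraries are of bulk culture, in which more cells with a response and more RNA per cell cannot be told apart.

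The promoters of 4 called members are shown, picked only among those that held the element searched. Each spans 250 bases before to 50 bases after the gene's start on the plus strand of GRCh38.p14 (RefSeq). Matches to the interferon-stimulated response element, 2 GAAA boxes with any 2 bases between them, searched on both strands with overlapping matches counted, are in capitals. They lie at chr14:94110486-94110785 (IFI27), chr1:1013247-1013546 (ISG15), chr15:88638766-88639065 (ISG20) and chr12:112938224-112938523 (OAS3).
IFI27: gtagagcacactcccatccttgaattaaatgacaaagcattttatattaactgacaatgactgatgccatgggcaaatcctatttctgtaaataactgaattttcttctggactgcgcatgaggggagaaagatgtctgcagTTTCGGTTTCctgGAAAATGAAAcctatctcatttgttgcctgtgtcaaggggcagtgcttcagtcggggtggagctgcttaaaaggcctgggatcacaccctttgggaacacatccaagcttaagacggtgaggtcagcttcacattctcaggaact
ISG15: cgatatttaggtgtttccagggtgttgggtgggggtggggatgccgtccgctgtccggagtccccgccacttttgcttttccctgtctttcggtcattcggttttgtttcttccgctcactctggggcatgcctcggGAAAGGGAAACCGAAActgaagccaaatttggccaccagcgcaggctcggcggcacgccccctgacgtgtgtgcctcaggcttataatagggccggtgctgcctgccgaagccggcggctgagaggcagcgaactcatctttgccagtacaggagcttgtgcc
ISG20: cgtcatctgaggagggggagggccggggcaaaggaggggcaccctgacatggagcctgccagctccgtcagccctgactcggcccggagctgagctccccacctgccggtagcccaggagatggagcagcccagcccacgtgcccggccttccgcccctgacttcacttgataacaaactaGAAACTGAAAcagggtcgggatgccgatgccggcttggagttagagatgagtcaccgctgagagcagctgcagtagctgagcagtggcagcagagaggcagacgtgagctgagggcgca
OAS3: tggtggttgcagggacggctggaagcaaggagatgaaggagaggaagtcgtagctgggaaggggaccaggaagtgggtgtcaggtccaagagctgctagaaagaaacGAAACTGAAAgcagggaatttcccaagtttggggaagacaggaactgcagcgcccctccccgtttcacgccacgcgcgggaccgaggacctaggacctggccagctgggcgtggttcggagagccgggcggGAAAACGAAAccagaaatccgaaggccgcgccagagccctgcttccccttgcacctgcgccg
The letters were in 19 of the 30 interferon-list promoters that the table held (63.3%) and in 9 of the 14 of called members, against 996 of 27305 promoters in all (3.65%). Counted from the gene's start, the first base of a match was at -108 and -95 in IFI27, at -113 and -107 in ISG15, at -69 in ISG20 and at -143 and -12 in OAS3. OAS3 lost its call without GW3965 replicate 3.

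IFI27, a small mitochondrial protein, had 391, 480.1 and 515 CPM with 3A4, against 153, 244 and 186 CPM with GW3965 (log2 fold change 1.25 ± 0.20 SE, adjusted p = 0.00538). IFI27 lost its call in 1 fit of all 36 libraries (adjusted p up to 0.136). ISG15, a ubiquitin-like modifier, had 216, 269.8 and 214 CPM with 3A4, against 95.4, 119 and 99.2 CPM with GW3965 (log2 fold change 1.16 ± 0.19 SE, adjusted p = 0.00676). The 3A4 libraries were higher throughout for both genes. USP18, which removes ISG15 from proteins, had 24.9, 39.4 and 28.2 CPM with 3A4, against 9.27, 8.71 and 5.697 CPM with GW3965 (log2 fold change 1.96 ± 0.32 SE, adjusted p = 0.00628), and part of its sequence is shared with a close copy, USP41. HERC6, a ligase of the HERC family, had 114, 134 and 110.3 CPM with 3A4, against 53.98, 56.6 and 43.5 CPM with GW3965 (log2 fold change 1.22 ± 0.18 SE, adjusted p = 0.00413). Again no 3A4 library fell within the GW3965 values. IFI6 (2.22, adjusted p = 0.0165), IFIT1, which binds foreign RNA caps (1.56, adjusted p = 0.0202) and the RNA sensor RIGI (1.12, adjusted p = 0.0173) were higher. XAF1 at 1.53, RSAD2 at 1.06 and MX1 at 0.79 did not pass the test, and MX2 at -0.02 was the member with a negative value. IFI6 lost its call without GW3965 replicate 3 (adjusted p up to 0.0606). IFIT1 lost its call without 3A4 replicate 2 or 3 or GW3965 replicate 3 (adjusted p up to 0.063). RIGI lost its call without 3A4 replicate 2 (adjusted p up to 0.0574).

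With GW3965 these genes lay below the vehicle. ISG15 had 462, 325 and 259 CPM with DMSO, and its log2 fold changes were -0.58 for 3A4 over DMSO (adjusted p = 0.26) and -1.74 for GW3965 over DMSO (adjusted p = 0.00306). HERC6 had 208, 152 and 131 CPM with DMSO, and its log2 fold changes were -0.46 for 3A4 over DMSO (adjusted p = 0.321) and -1.67 for GW3965 over DMSO (adjusted p = 0.00306). USP18 had log2 fold changes of -0.64 for 3A4 over DMSO (adjusted p = 0.398) and -2.60 for GW3965 over DMSO (adjusted p = 0.00355). The DMSO values of ISG15 and HERC6 overlapped the 3A4 values at their low end and otherwise lay above them. The DMSO libraries are the control of both ligands, so these pairs of values are not independent of each other.

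Fewer calls fell on genes next to the interferon response. Of 18 interferon ligands, receptors and sensors, the RNA editing enzyme ADAR (0.48, adjusted p = 0.0193) and the signalling inhibitor SOCS1 (1.23, adjusted p = 0.0201) were higher. These 2 were 11.1% of the 18, against 3.09% of all genes. Of 18 genes of antigen presentation by MHC class I, 3 (16.7%, against 3.09% of all genes) were higher and 0 lower. Their median was 0.30. The transcription factor IRF1 had a log2 fold change of 0.65 (adjusted p = 0.0172). TAP1, a peptide transporter, had one of 0.73 (adjusted p = 0.0173) and PSMB9, an immunoproteasome subunit that overlaps TAP1 on the other strand, one of 0.88 (adjusted p = 0.0251). The count of higher calls was between 0 and 3 when 1 library was left out, at 0 without 3A4 replicate 2 and 1 without 3A4 replicate 1 or GW3965 replicate 2 or GW3965 replicate 3. ADAR and TAP1 lost their calls without 3A4 replicate 1 or 2 or GW3965 replicate 2 or 3 (adjusted p up to 0.0678). SOCS1 lost its call without 3A4 replicate 1 or 2 or GW3965 replicate 1, 2 or 3 (adjusted p up to 0.0935). IRF1 lost its call without 3A4 replicate 1 or 2 (adjusted p up to 0.133). PSMB9 lost its call without 3A4 replicate 2 or 3 or GW3965 replicate 1, 2 or 3 (adjusted p up to 0.0786).

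Chemokines and other targets of the inflammatory factor NF-kB formed the second group higher with 3A4. Of 34 tested, 13 (38.2%, against 3.09% of all genes) were higher and 0 lower, and the median log2 fold change was 0.63. The number called higher was between 5 and 10 when 1 library was left out, at 5 without GW3965 replicate 2, 7 without GW3965 replicate 3 and 8 without 3A4 replicate 1. CXCL5, which attracts neutrophils, had 48.7, 29.7 and 26.4 CPM with 3A4, against 9.402, 4.07 and 2.87 CPM with GW3965 (log2 fold change 2.67 ± 0.46 SE, adjusted p = 0.00819). CXCL3, a related chemokine, had 7.23, 5.14 and 3.46 CPM with 3A4, against 1.75, 1.75 and 1.36 CPM with GW3965 (log2 fold change 1.70 ± 0.28 SE, adjusted p = 0.00733). No GW3965 library reached the lowest 3A4 library in either gene. CSF3, the growth factor of neutrophils called G-CSF, had 4.31, 1.998 and 1.39 CPM with 3A4, against 0.385, 0 and 0 CPM with GW3965 (log2 fold change 4.20 ± 0.90 SE, adjusted p = 0.0215). CSF3 lost its call without 3A4 replicate 1 or GW3965 replicate 2 or 3 and in a fit of only the 6 libraries compared (adjusted p up to 0.0837). CXCL2 (1.82, adjusted p = 0.0128) and CCL20, which attracts lymphocytes (1.60, adjusted p = 0.023), were also higher. CXCL2 lost its call without GW3965 replicate 2 (adjusted p up to 0.0579). CCL20 lost its call without 3A4 replicate 1 or 3 or GW3965 replicate 1 or 2 (adjusted p up to 0.139).

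BIRC3 and TNFAIP3, which NF-kB is known to induce, were among the higher genes. BIRC3, an inhibitor of apoptosis, had 79.1, 98.04 and 63.2 CPM with 3A4, against 29.4, 27.7 and 15.3 CPM with GW3965 (log2 fold change 1.73 ± 0.29 SE, adjusted p = 0.00713). The BIRC3 groups were apart, and its log2 fold changes were 1.19 for 3A4 over DMSO (adjusted p = 0.165) and -0.55 for GW3965 over DMSO (adjusted p = 0.48). TNFAIP3, the ubiquitin editing enzyme A20, had a log2 fold change of 1.74 (adjusted p = 0.0236). The acute phase gene SAA1 had 51.6, 39.9 and 44.9 CPM with 3A4, against 21.7, 24.6 and 19.6 CPM with GW3965 (log2 fold change 1.05 ± 0.14 SE, adjusted p = 0.00291), and its near copy SAA2, with which it may share reads, had a log2 fold change of 0.72. SAA1 lost its call in 1 fit of all 36 libraries (adjusted p up to 0.253), as did SAA2. TNFAIP3 lost its call without 3A4 replicate 1 or GW3965 replicate 2 or 3 (adjusted p up to 0.0947). CXCL5 had 17.3, 7.81 and 13.6 CPM with DMSO, values that lay below those of 3A4 and overlapped those of GW3965.

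**Figure D4:**
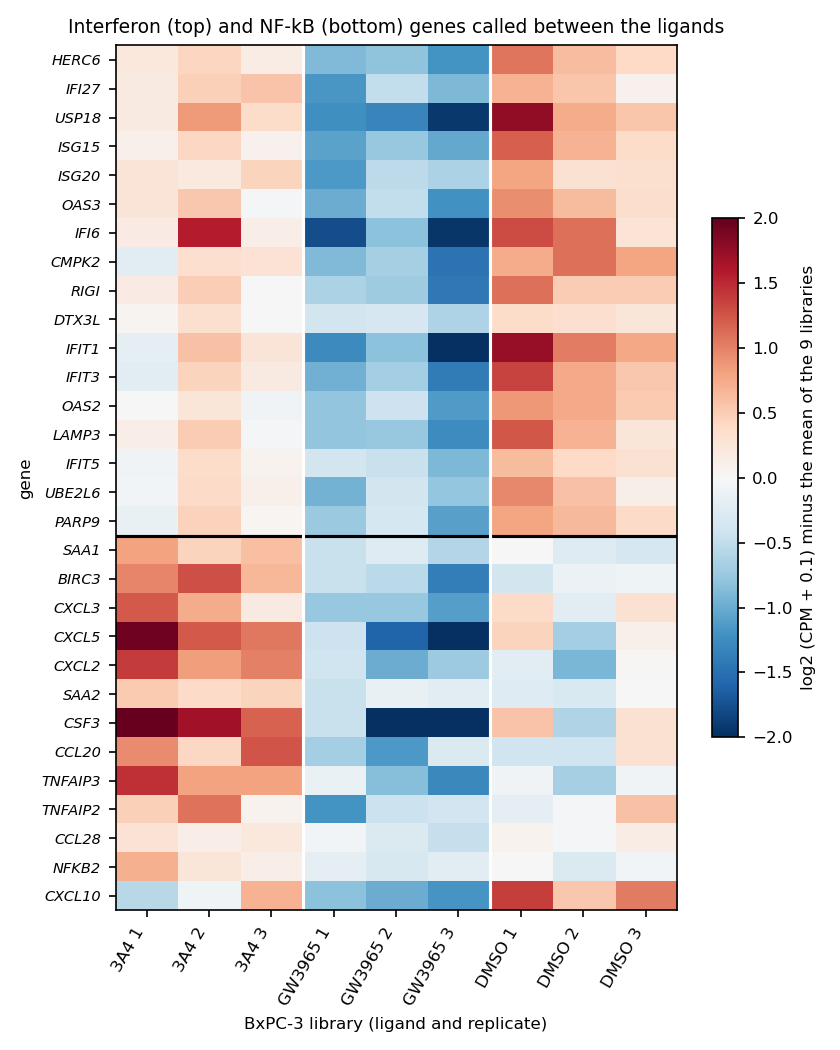
Level of 17 interferon genes (top) and 13 NF-kB genes (bottom) that passed the test, as log2 (CPM + 0.1) minus the gene's mean over the 9 libraries shown (red high, blue low). Columns are the libraries with 3A4, GW3965 and DMSO. The GW3965 columns are low in both blocks, and DMSO replicate 1 is the highest of the 9 libraries for 15 of the 17 interferon genes.

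Immediate early genes are switched on by growth factor signals within minutes. Of 20 tested, 4 were higher and 2 lower, against 3.09% and 3.42% of all genes, and the median log2 fold change was 0.62. EGR3 had 2.52, 2.85 and 3.41 CPM with 3A4, against 1.15, 0.8996 and 1.21 CPM with GW3965 (log2 fold change 1.42 ± 0.22 SE, adjusted p = 0.00538), and EGR2 (2.13) and EGR1 (1.25) were also higher. FOSL1, an AP-1 subunit that is an output of ERK signalling, had 271, 164 and 199 CPM with 3A4, against 93.1, 60.7 and 80.7 CPM with GW3965 (log2 fold change 1.44 ± 0.26 SE, adjusted p = 0.0105). All 3 values of each of EGR3 and FOSL1 with 3A4 exceeded those with GW3965. JUND, another AP-1 subunit, was lower (-0.65, adjusted p = 0.00469), as was the matricellular gene CCN1 (-0.86, adjusted p = 0.032). Of 20 genes of ERK feedback and output, the phosphatases DUSP1 (0.83, adjusted p = 0.00689) and DUSP4 (0.63, adjusted p = 0.0315) were higher beside FOSL1. These 3 were 15% of that list, against 3.09% of all genes. EGR2 lost its call without GW3965 replicate 2 and in 1 fit of all 36 libraries (adjusted p up to 0.148). EGR3 lost its call in 1 fit of all 36 libraries (adjusted p up to 0.19). DUSP4 lost its call when any 1 of the 6 libraries was left out, in 1 fit of all 36 libraries and without a filter on low counts (adjusted p up to 0.364). EGR1 lost its call without 3A4 replicate 1 or 2 or GW3965 replicate 1, 2 or 3 (adjusted p up to 0.131). CCN1 lost its call without 3A4 replicate 2 or 3 or GW3965 replicate 1, 2 or 3 (adjusted p up to 0.197). Without GW3965 replicate 2, 2 immediate early genes were called higher.

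The mucosal genes PIGR, LCN2, MUC5AC, MUC2 and SPINK4 were higher with 3A4. Of 35 genes that mark classical pancreatic tumours and mucous epithelium 29 were tested. Of these 6 (20.7%, against 3.09% of all genes) were higher and 0 lower, and the median log2 fold change was 0.42. With any 1 library left out, 4 or 5 were called. PIGR (ENSG00000162896, chr1:206928518-206946466, minus strand) codes for the receptor that carries polymeric immunoglobulin across epithelia. It had 32.2, 23.2 and 21.9 CPM with 3A4, against 2.27, 2.23 and 1.01 CPM with GW3965. The lowest 3A4 library was above the highest GW3965 library, the log2 fold change was 3.80 ± 0.43 SE (adjusted p = 0.00109), and the vehicle libraries had 3.83, 7.15 and 6.53 CPM with DMSO. LCN2, a siderophore-binding protein of mucosal defence, had 258, 205 and 219 CPM with 3A4, against 97.02, 80.02 and 70.9 CPM with GW3965 (log2 fold change 1.46 ± 0.14 SE, adjusted p = 0.000582). LCN2 was also above DMSO with 3A4 (log2 fold changes 1.03 for 3A4 over DMSO (adjusted p = 0.0378) and -0.43 for GW3965 over DMSO (adjusted p = 0.22)). The gel-forming mucin MUC5AC had 5.11, 4.61 and 3.82 CPM with 3A4, against 0.727, 0.663 and 0.504 CPM with GW3965 (log2 fold change 2.82 ± 0.40 SE, adjusted p = 0.00344), and MUC2 one of 1.04 (adjusted p = 0.049). SPINK4, a protease inhibitor of goblet cells, was higher (1.69, adjusted p = 0.00939). MUC5AC and SPINK4 lost their calls in 1 fit of all 36 libraries (adjusted p up to 0.0753 and 0.0549). MUC2 lost its call when any 1 of the 6 libraries was left out (adjusted p up to 0.2). The transcription factors GATA6 (0.16) and FOXA2 (0.05) and the trefoil genes TFF1 (-0.72) and TFF2 (-0.63) were not called.

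KRT16, KRT17, KRT5 and KRT14, keratins of stratified epithelium, were lower with 3A4. Of 17 keratins 7 (41.2%, against 3.42% of all genes) were lower and 0 higher, and the median log2 fold change was -0.34. Calls lower in this list numbered between 3 and 7 when 1 library was left out, at 3 without 3A4 replicate 1 or 3A4 replicate 3 or GW3965 replicate 3 and 4 without 3A4 replicate 2 or GW3965 replicate 2. KRT16, a keratin of stressed or fast-growing squamous cells, had 5.63, 10.8 and 13.4 CPM with 3A4, against 40.6, 66.4 and 110.1 CPM with GW3965 (log2 fold change -2.86 ± 0.40 SE, adjusted p = 0.00341). KRT17, its close relative, had 1172, 1113 and 1049 CPM with 3A4, against 2526, 3154 and 2756 CPM with GW3965 (log2 fold change -1.34 ± 0.20 SE, adjusted p = 0.00422). The ligands' values were separate for both, and KRT5 (-1.25, adjusted p = 0.0102) and KRT14 (-1.004, adjusted p = 0.0175), the keratin pair of basal cells, were lower too. KRT14, KRT16 and KRT17 have near-identical pseudogenes with which reads can be shared. KRT17 and KRT5 lost their calls in 1 fit of all 36 libraries (adjusted p up to 0.257 and 0.404). KRT14 lost its call without 3A4 replicate 1, 2 or 3 or GW3965 replicate 3 and in 1 fit of all 36 libraries (adjusted p up to 0.301). The simple keratins KRT8 (0.28), KRT18 (0.43), KRT19 (-0.25) and KRT7 (-0.34) did not pass the test.

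The basal-like tumour list shares KRT5, KRT14 and KRT17 with the keratins. Of its 25 genes 6 were lower and 2 higher, against 3.42% and 3.09% of all genes. The median was -0.26, and 4 to 6 were lower with 1 library left out. TP63, the master factor of basal epithelium, had 65.96, 80.1 and 70.3 CPM with 3A4, against 104, 145 and 123 CPM with GW3965 (log2 fold change -0.78 ± 0.13 SE, adjusted p = 0.00783). FGFBP1, a secreted carrier of fibroblast growth factors, had 96.3, 124 and 128 CPM with 3A4, against 635, 719.9 and 790.3 CPM with GW3965 (log2 fold change -2.62 ± 0.32 SE, adjusted p = 0.0015). Both were lower in each 3A4 library. TNS4, a focal adhesion protein, was higher (0.69, adjusted p = 0.0102), as was DHRS9 (0.76, adjusted p = 0.0163). TP63 and TNS4 lost their calls in 1 fit of all 36 libraries. DHRS9 lost its call without 3A4 replicate 3 or GW3965 replicate 2 (adjusted p up to 0.245). Among 24 junction genes CLDN1, a tight junction claudin, had 228, 247 and 224 CPM with 3A4, against 594, 659.7 and 501 CPM with GW3965 (log2 fold change -1.33 ± 0.13 SE, adjusted p = 0.000618). Of the others, DSP was called lower (-0.31), and CDH1 (-0.23) was not called. Calls were 8.33% of the junction genes, against 6.51% of all genes. Among 31 mesenchymal, matrix and integrin genes 2 were higher and 4 lower (19.4% called, against 6.51% of all genes). They included the repressor ZEB1 (1.78, adjusted p = 0.0204) on the high side and N-cadherin, CDH2 (-1.62, adjusted p = 0.0225), on the low side. ZEB1 lost its call without 3A4 replicate 2 or 3 or GW3965 replicate 2 or 3 and in a fit of only the 6 libraries compared (adjusted p up to 0.0827). CDH2 lost its call without 3A4 replicate 2 or 3 or GW3965 replicate 1 (adjusted p up to 0.0716). DSP lost its call when any 1 of the 6 libraries was left out (adjusted p up to 0.506).

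Proliferation genes that passed the test were few in number, and those in the lists of replication, mitosis and histones were all higher with 3A4. Of 44 genes of DNA replication and repair 4 (9.09%, against 3.09% of all genes) were higher and 0 lower. Of the 44, 42 had a positive value and the median was 0.36. For 23 of the 44 every 3A4 library was above every GW3965 library, as it was for 14.8% of all genes. DESeq2 called 15 of the 44 higher and 0 lower, and the fit with a replicate block 19 and 0. The count of higher calls was between 0 and 7 when 1 library was left out, at 0 without 3A4 replicate 3 or GW3965 replicate 2 or GW3965 replicate 3, 1 without 3A4 replicate 1 or 3A4 replicate 2 and 7 without GW3965 replicate 1. Of 30 mitosis genes 3 (10%, against the same 3.09%) were higher, CCNB1 (0.64), CDC20 (0.72) and TPX2 (0.57), with a list median of 0.24. The number called higher was between 0 and 3 when 1 library was left out, at 0 without 3A4 replicate 3 or GW3965 replicate 2 or GW3965 replicate 3 and 1 without 3A4 replicate 1. CCNB1 lost its call without 3A4 replicate 3 or GW3965 replicate 2 or 3 (adjusted p up to 0.085). CDC20 lost its call without 3A4 replicate 1 or 3 or GW3965 replicate 1, 2 or 3 (adjusted p up to 0.121). TPX2 lost its call without 3A4 replicate 1 or 3 or GW3965 replicate 2 or 3 (adjusted p up to 0.176). Of 30 replication-dependent histones 14 were tested and 3 (21.4%) were higher. The linker histone H1-2 had 56.7, 55.95 and 46.4 CPM with 3A4, against 21.1, 15.1 and 13.2 CPM with GW3965 (log2 fold change 1.69 ± 0.18 SE, adjusted p = 0.000812). Every 3A4 library of H1-2 was above every other library, with 20.3, 19.4 and 18.8 CPM with DMSO. The other called histones, H2BC12 (0.71) and H4C8 (0.87), lost their calls when any 1 of the 6 libraries was left out (adjusted p up to 0.129 and 0.263).

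Among 25 genes of the BCL2 family and apoptosis, BIK, a BH3-only promoter of cell death, had 29.96, 26.6 and 26.5 CPM with 3A4, against 10.98, 10.1 and 10.1 CPM with GW3965 (log2 fold change 1.41 ± 0.14 SE, adjusted p = 0.000618). BCL2, which opposes cell death, had 8.91, 7.34 and 8.52 CPM with 3A4, against 14.1, 13.5 and 14.7 CPM with GW3965 (log2 fold change -0.77 ± 0.12 SE, adjusted p = 0.00596). Every 3A4 library had more BIK and less BCL2 than the GW3965 libraries. BCL2 had log2 fold changes of 0.05 for 3A4 over DMSO (adjusted p = 0.904) and 0.82 for GW3965 over DMSO (adjusted p = 0.00999). Those of BIK were 0.81 for 3A4 over DMSO (adjusted p = 0.0856) and -0.60 for GW3965 over DMSO (adjusted p = 0.0695). CASP8 (0.52) and MCL1 (-0.38) were called higher and lower with 3A4 than with GW3965. BIK and BCL2 lost their calls in 1 fit of all 36 libraries (adjusted p up to 0.177 and 0.285). CASP8 lost its call without 3A4 replicate 2 or 3 or GW3965 replicate 2 or 3, in 1 fit of all 36 libraries, without a filter on low counts and in a fit of only the 6 libraries compared (adjusted p up to 0.092). MCL1 lost its call without 3A4 replicate 1, 2 or 3 or GW3965 replicate 2 or 3 (adjusted p up to 0.18). Of 25 CDK inhibitors and p53 targets 2 (8%, against 3.42% of all genes) were lower, BTG2 (-0.57) and ZMAT3 (-0.93). Of 11 metallothionein and zinc genes, the metallothionein MT1X was higher (1.14, adjusted p = 0.00494) and the zinc exporter SLC30A1 was lower (-0.61, adjusted p = 0.0225). These calls were 18.2% of the 11, against 6.51% of all genes. BTG2 lost its call when any 1 of the 6 libraries was left out (adjusted p up to 0.213). ZMAT3 lost its call without 3A4 replicate 1 or 2 or GW3965 replicate 1 or 3 (adjusted p up to 0.113). SLC30A1 lost its call without 3A4 replicate 1 or 3 or GW3965 replicate 1 or 3 (adjusted p up to 0.177).

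In several other pathways the calls were 0% to 15.4% of the tested genes, against 6.51% of all genes. Of these lists only the respiratory chain lay below the share of all genes. No subunit of the respiratory chain encoded in the nucleus passed edgeR's test (0 of 32, median 0.03), while 5 had an unadjusted p under 0.05, 1 was called by DESeq2 and 0 by limma-voom. Of 13 mitochondrially encoded genes MT-ND4L (-0.56) and MT-ATP6 (-0.51) were lower, with a median of -0.19, beside the lower mitochondrial share of counts in the 3A4 libraries. Glycolysis and hypoxia genes split, with 2 of 27 higher and 2 lower, among them the glucose transporter SLC2A1 (-0.48, adjusted p = 0.027). SLC2A1 lost its call without 3A4 replicate 1, 2 or 3 or GW3965 replicate 2 or 3, in 1 fit of all 36 libraries and in a fit of only the 6 libraries compared (adjusted p up to 0.154). Ribosomal proteins RPL3 (-0.63) and RPL13 (-0.46) were lower of 20 tested, and proteasome subunits PSMB3 (0.42) and PSMB4 (0.45) were higher of 24. Of 28 lysosome and autophagy genes the protease CTSL was higher (0.48), and NPC2 (-0.62), ULK1 (-0.64) and WIPI1 (-0.89) were lower. MT-ND4L lost its call without 3A4 replicate 3 (adjusted p up to 0.308). MT-ATP6, NPC2 and ULK1 lost their calls without 3A4 replicate 1, 2 or 3 or GW3965 replicate 2 or 3 (adjusted p up to 0.23). RPL3 lost its call without 3A4 replicate 1 or 2 or GW3965 replicate 2 or 3 (adjusted p up to 0.0617). RPL13 lost its call without 3A4 replicate 1 or 2 or GW3965 replicate 3 (adjusted p up to 0.0612). PSMB3, PSMB4 and CTSL lost their calls when any 1 of the 6 libraries was left out (adjusted p up to 0.158). WIPI1 lost its call without 3A4 replicate 1 or 3 or GW3965 replicate 2 or 3 (adjusted p up to 0.0803).

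In the remaining lists the calls were 5.26% to 14.3% of the genes tested, against 6.51% of all genes. HSPB8 (-0.45) was called among 19 heat shock proteins and NQO1 (-0.42) among 16 targets of the aryl hydrocarbon receptor, both lower. LCN2 was the 1 call among 12 iron genes, and PTGES (1.01), a prostaglandin E synthase, the 1 higher among 17 genes of prostaglandin and leukotriene synthesis. The ligand AREG (-0.86) and the receptor inhibitor ERRFI1 (-0.62) were lower among 15 EGF ligands and receptors. KLF16 (0.54) was higher and KLF12 (-0.67) lower among 15 KLF factors. Likewise S100A9 (0.58) was higher and S100A14 (-0.59) lower among 14 S100 proteins, and BMP2 (0.58) was higher and SMAD7 (-0.58) lower among 20 genes of TGF-beta signalling. HSPB8, PTGES, KLF16, BMP2 and SMAD7 lost their calls when any 1 of the 6 libraries was left out (adjusted p up to 0.621). NQO1 lost its call without 3A4 replicate 1 or 2 or GW3965 replicate 1 or 2 (adjusted p up to 0.121). AREG and S100A14 lost their calls without 3A4 replicate 2 (adjusted p up to 0.346). ERRFI1 and KLF12 lost their calls without 3A4 replicate 1, 2 or 3 or GW3965 replicate 1 or 2 (adjusted p up to 0.178). S100A9 lost its call without 3A4 replicate 1 or 3 or GW3965 replicate 1 or 2 (adjusted p up to 0.202).

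Outside the pathways, the largest called differences with separate groups were of genes at low to moderate levels. B3GALT5, a galactosyltransferase of type 1 chains, had 9.47, 6.61 and 6.25 CPM with 3A4, against 0.812, 0.8996 and 0.807 CPM with GW3965 (log2 fold change 3.14 ± 0.23 SE, adjusted p = 0.000139). The 3A4 libraries of B3GALT5 were many-fold higher, and it had 3.58, 2.78 and 3.402 CPM with DMSO. ALOXE3, an epidermal lipoxygenase, had 4.04, 1.79 and 2.94 CPM with 3A4, against 0.256, 0.426 and 0.202 CPM with GW3965 (log2 fold change 3.29 ± 0.61 SE, adjusted p = 0.0124). WSCD1 (2.78), SH2D1B (2.75), GPR141 (3.39), CD69 (2.99) and ESM1 (2.89) were also among the highest values. GPR141 overlaps another coding gene. B3GALT5 and SH2D1B lost their calls in 1 fit of all 36 libraries (adjusted p up to 0.0665 and 0.112). GPR141 lost its call without GW3965 replicate 2 and with limma-voom (adjusted p up to 0.061). CD69 lost its call without 3A4 replicate 1 or GW3965 replicate 2 or 3 and in 1 fit of all 36 libraries (adjusted p up to 0.113). ESM1 lost its call when any 1 of the 6 libraries was left out, in 1 fit of all 36 libraries, with limma-voom and without a filter on low counts (adjusted p up to 0.147).

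On the low side, TNNT3, a troponin of fast skeletal muscle, had 0.919, 0.5302 and 0 CPM with 3A4, against 5.94, 9.23 and 4.74 CPM with GW3965 (log2 fold change -3.71 ± 0.73 SE, adjusted p = 0.0163). COL5A3, a chain of type V collagen, had 0.3596, 0.163 and 0.362 CPM with 3A4, against 2.74, 2.699 and 2.67 CPM with GW3965 (log2 fold change -3.18 ± 0.72 SE, adjusted p = 0.0266). PPP1R1B, the phosphatase inhibitor DARPP-32, had 0.439, 1.14 and 0.775 CPM with 3A4, against 1.97, 7.34 and 4.59 CPM with GW3965 (log2 fold change -2.55 ± 0.55 SE, adjusted p = 0.0225). The 3A4 libraries were the lower ones in all of these, and the phospholipase PLA2G2F had a log2 fold change of -2.67 (adjusted p = 0.0311). UPK3BL1 had the lowest value of the genes named by size, -4.29 ± 1.04 SE (adjusted p = 0.0332), and it rested on 1 library. It had 1.36, 1.39 and 0.826 CPM with 3A4, against 4.06, 3.55 and 63.2 CPM with GW3965, and it overlaps other genes on the same strand. TNNT3 lost its call without 3A4 replicate 2 or GW3965 replicate 2 and in 1 fit of all 36 libraries (adjusted p up to 0.0548). COL5A3 lost its call without 3A4 replicate 1, 2 or 3 or GW3965 replicate 2 or 3 and in 1 fit of all 36 libraries (adjusted p up to 0.0848). PPP1R1B lost its call without 3A4 replicate 1 or 3 or GW3965 replicate 2 or 3 and with limma-voom (adjusted p up to 0.0862). PLA2G2F lost its call without 3A4 replicate 1 or 2 or GW3965 replicate 2 or 3 and in 1 fit of all 36 libraries (adjusted p up to 0.113). UPK3BL1 lost its call without 3A4 replicate 1, 2 or 3 or GW3965 replicate 3, in 1 fit of all 36 libraries, with limma-voom and in a fit of only the 6 libraries compared (adjusted p up to 0.209).

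Against the vehicle each ligand alone moved fewer genes past the test than the ligands differed by. With 3A4 against DMSO 6 genes (0.0333%) were called, 5 higher and 1 lower, and 2292 had an unadjusted p under 0.05. The 5 were H1-2, LCN2, the neuron navigator NAV2, the uridine phosphorylase UPP1 and ENSG00000282034, which overlaps SRCAP, and SLITRK6 was the 1 that was lower. NAV2 had 62.4, 52.9 and 38.9 CPM with 3A4, against 24.8, 21.3 and 24.0 CPM with GW3965 and 19.9, 14.9 and 22.7 CPM with DMSO. The 3A4 libraries of NAV2 were above all others. SLITRK6, a neuronal membrane protein, had 50.2, 57.99 and 54.2 CPM with 3A4, against 78.7, 79.9 and 73.2 CPM with GW3965 and 119, 118 and 106 CPM with DMSO. Every SLITRK6 value with either ligand lay below every DMSO value. With GW3965 against DMSO 239 genes (1.32%) were called, 86 higher and 153 lower, and 2177 had an unadjusted p under 0.05. Among the members described, ABCA1, SCD and SREBF1 had log2 fold changes over DMSO of 2.91, 1.89 and 1.58 with GW3965. With 3A4 the same genes had -0.31, -1.39 and -0.81, and none of these passed the test (adjusted p = 0.689, 0.179 and 0.234).

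Which of these differences depended on the line was tested in 1 fit of all 36 libraries, as the difference between the log2 fold changes of 3A4 over GW3965 in BxPC-3 and in another line. The medium was DMEM for both MIA PaCa-2 and PANC-1, so line and medium cannot be told apart. Within MIA PaCa-2 and PANC-1 alone, 8.68% and 7.27% of the genes tested were called between these ligands. Against MIA PaCa-2, 629 of 22132 genes (2.84%) differed, 172 with a more positive and 457 with a more negative value in BxPC-3. They included 159 of the 1175 genes called in BxPC-3. The median difference of all genes was -0.10, and the GW3965 libraries of MIA PaCa-2 were shallower than those of BxPC-3, at 2701393 to 13631724 counts. Against PANC-1, 219 genes (0.99%) differed, 103 more positive and 116 more negative, and they included 83 of the 1175. Without 3A4 replicate 3 or GW3965 replicates 1 or 2 of BxPC-3 the first count was 400, 353 and 418. Without 3A4 replicates 2 or 3 or GW3965 replicate 2 the second was 133, 137 and 116.

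The response of ABCG1 depended on the line. Its log2 fold change of 3A4 over GW3965 was -0.65 in BxPC-3, against -3.77 for MIA PaCa-2 and -5.82 for PANC-1. The difference was 3.12 ± 0.52 (SE) from MIA PaCa-2 (adjusted p = 0.00141) and 5.18 ± 0.57 (SE) from PANC-1 (adjusted p = 1.49e-05). ABCA1 did not pass this test against either line, with differences of -0.51 ± 0.44 (adjusted p = 0.652) and 1.30 ± 0.44 (adjusted p = 0.199). USP18 was higher with 3A4 in BxPC-3 (1.97) and near 0 in MIA PaCa-2 (-0.10) and PANC-1 (-0.07), and both differences passed the test (adjusted p = 0.00227 and 0.00166). FUT8, which adds the core fucose of N-glycans, had 1.33 in BxPC-3, against 0.04 for MIA PaCa-2 and 0.02 for PANC-1 (adjusted p of the differences 0.000526 and 0.000137). STK39, a kinase that regulates chloride cotransporters, had -1.24 in BxPC-3, against 0.47 for MIA PaCa-2 and -0.19 for PANC-1 (adjusted p of the differences 9.34e-05 and 0.00536). Of the lipid genes, FADS3 had a more negative value in BxPC-3 (-1.63) than in MIA PaCa-2 (-0.52) or PANC-1 (-0.65), with adjusted p of 0.00946 and 0.0368 for the differences. The difference of FADS3 from PANC-1 lost its call without a filter on low counts, without any of the 3A4 libraries of BxPC-3 and without GW3965 replicate 2 or 3 (adjusted p up to 0.146 over 9 alternatives).

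**Figure D5:**
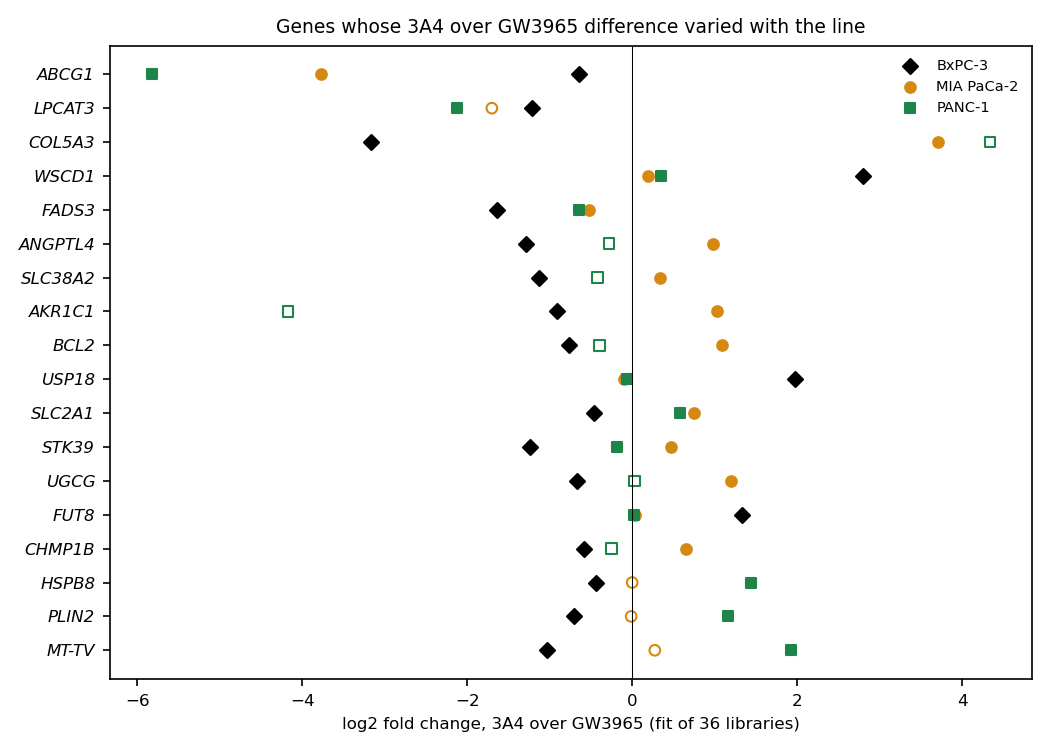
Log2 fold change of 3A4 over GW3965 (horizontal axis) in BxPC-3 (black diamonds), MIA PaCa-2 (orange circles) and PANC-1 (green squares) from 1 fit of 36 libraries, for the named genes whose value differed between BxPC-3 and another line. A filled symbol of another line marks a difference from BxPC-3 with an adjusted p under 0.05, and an open one marks no such call. ABCG1 lies at -0.65 in BxPC-3 and far to the left in both other lines, while USP18, FUT8 and WSCD1 lie to the right of 0 in BxPC-3 and near 0 in the other lines.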

How the data were processed

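RNA sequencing of 36 libraries of 3 established human lines was used, with 3 libraries in each of 12 groups. The labels call the libraries biological replicates but do not say whether they came from separate cultures, so p-values measure only the spread between these libraries. Per the labels' protocols, cells were kept at 37 °C in 5% CO2, RNA was isolated with spin columns, and stranded total RNA libraries were made from 500 ng. The authors deposited whole-number counts per gene. Trim Galore 0.4.4, HISAT2 2.0.2, SAMtools 1.3, StringTie 1.3.1c and the build GRCh38 are named in the submitters' processing notes. How strand and multiply matching reads were handled, and which annotation was used, is not given in the sources used here. The counts of overlapping or near-identical genes can share reads. Of 58658 lines, 407 for transcripts and 8 for assembled loci were dropped (up to 0.00396% of a library's counts). Of 58243 genes, 57532 had a symbol in the names table and 57980 were in GENCODE 29, from which coordinates and types were taken.

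The 12 BxPC-3 libraries (3A4, 1E5, GW3965 and DMSO, where 1E5 is another compound labelled as an inverse agonist and served only to estimate the spread) were fitted with edgeR 4.0.16 in R 4.3.3, with TMM scaling, the default filterByExpr (about 10 counts, 15 in total) and 1 mean per group. The two-sided quasi-likelihood test of 3A4 minus GW3965 was adjusted over all tested genes (Benjamini-Hochberg), and genes with an adjusted p under 0.05 were called. Differences between lines were tested in a fit of all 36 libraries. CPM are counts per 1000000 of the TMM-scaled total of each library. On simulated data for 18042 genes with the spread of these libraries, 56% of 2-fold and 93% of 4-fold changes were recovered, with 11 false calls.

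The comparison, the gene lists and the tests were chosen with earlier results of these data known. The text names 9 LXR genes, the 12 highest and 12 lowest called coding genes at 2 CPM or more on average in the higher group and no overlap, up to 4 called genes with the smallest p of each list with at least 3 called, and the 4 called genes with the smallest p for the difference from each line. The 6 genes called against DMSO, other called list members and uncalled members were picked after their values were seen. Some genes that this rule names are not reported here. Lists are described by counts and medians, with no test. Promoters and their coordinates are from RefSeq (GRCh38.p14). Alternatives were RLE scaling, no filter, DESeq2 1.42.0, limma-voom 3.58.1, a replicate block, other sets of libraries in the fit, and leaving out each of the 6 libraries.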

Additional observations from a re-analysis of the deposited data

Results flagged for a closer look

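A set of 25 differences between lines stood out because the log2 fold change of 3A4 over GW3965 in BxPC-3 differed from that in MIA PaCa-2 or PANC-1 by edgeR's quasi-likelihood test of the difference itself, among the genes named in the report. Values below are the log2 fold change in BxPC-3 minus that in the other line, with the adjusted p over 22132 genes. Of the 25, 19 kept their call in all 9 alternatives of that fit. The GW3965 libraries of MIA PaCa-2 had fewer counts than those of BxPC-3 and the medium differed between the lines. The part of either in these differences was not tested.

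Among lipid genes, the difference of ABCG1 was 3.12 from MIA PaCa-2 (adjusted p = 0.00141) and 5.18 from PANC-1 (adjusted p = 1.49e-05). LPCAT3 differed by 0.91 from PANC-1 (adjusted p = 0.0368), with -1.22 in BxPC-3 and -2.13 in PANC-1. FADS3 differed by -1.11 from MIA PaCa-2 (adjusted p = 0.00946) and by -0.98 from PANC-1 (adjusted p = 0.0368). ANGPTL4 had -1.29 in BxPC-3 and 0.98 in MIA PaCa-2, a difference of -2.27 (adjusted p = 0.0302). It did not pass edgeR's test within MIA PaCa-2 alone (adjusted p = 0.0948). PLIN2 had -0.71 in BxPC-3 and 1.17 in PANC-1, a difference of -1.87 (adjusted p = 0.00011). UGCG, which makes glucosylceramide, had -0.67 in BxPC-3 and 1.19 in MIA PaCa-2, a difference of -1.86 (adjusted p = 0.000137).

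Among genes of stress and survival, SLC38A2 differed by -1.47 (adjusted p = 0.00202), AKR1C1 by -1.93 (adjusted p = 0.00753) and BCL2 by -1.85 (adjusted p = 0.0468) from MIA PaCa-2, where each had a positive value. Tested within MIA PaCa-2 alone by edgeR, AKR1C1 passed (adjusted p = 0.021), while SLC38A2 (adjusted p = 0.448) and BCL2 (adjusted p = 0.0589) did not. AKR1C1 has close copies that can share its reads. SLC2A1 differed by -1.21 from MIA PaCa-2 (adjusted p = 0.00521) and by -1.04 from PANC-1 (adjusted p = 0.0273), again with opposite signs. The small heat shock protein HSPB8 had -0.44 in BxPC-3 and 1.44 in PANC-1, a difference of -1.88 (adjusted p = 0.00011).

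USP18 differed by 2.07 from MIA PaCa-2 (adjusted p = 0.00227) and by 2.04 from PANC-1 (adjusted p = 0.00166). FUT8 differed by 1.29 from MIA PaCa-2 (adjusted p = 0.000526) and by 1.30 from PANC-1 (adjusted p = 0.000137). WSCD1 differed by 2.61 from MIA PaCa-2 (adjusted p = 0.00694) and by 2.45 from PANC-1 (adjusted p = 0.0212). STK39 differed by -1.71 from MIA PaCa-2 (adjusted p = 9.34e-05) and by -1.05 from PANC-1 (adjusted p = 0.00536).

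COL5A3 had -3.17 in BxPC-3 and 3.71 in MIA PaCa-2, a difference of -6.88 (adjusted p = 0.0191). Within MIA PaCa-2 alone it did not pass edgeR's test (adjusted p = 0.0851). CHMP1B, a subunit of the ESCRT-III complex, differed by -1.24 from MIA PaCa-2 (adjusted p = 0.000526). The mitochondrial transfer RNA MT-TV had -1.03 in BxPC-3 and 1.93 in PANC-1, a difference of -2.96 (adjusted p = 0.000267), and such short RNAs are counted poorly by this kind of library.

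The calls that were lost concerned LPCAT3, FADS3, WSCD1 and SLC2A1 against PANC-1 and ANGPTL4 and BCL2 against MIA PaCa-2. WSCD1 lost it without 3A4 replicate 1 or GW3965 replicate 2 (adjusted p up to 0.0785), SLC2A1 without 3A4 replicate 2 or 3 or GW3965 replicate 2 or 3 (up to 0.087) and ANGPTL4 without 3A4 replicate 1 or 2 or GW3965 replicate 3 (up to 0.0779). LPCAT3 lost it without a filter on low counts and without each library of BxPC-3 except GW3965 replicate 2 (up to 0.114), and FADS3 likewise except GW3965 replicate 1 (up to 0.146). BCL2 lost it with RLE scaling, without a filter on low counts and when any 1 library was left out (up to 0.0988).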

How the results depend on the processing

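The directions of the 104 named genes did not reverse in any of 1352 values over 13 alternatives. Of these values 260 fell short of the threshold where the gene was called and 2 passed it where it was not (ABCG1 with the replicate block, NR1H2 without GW3965 replicate 1). For 42 named genes the call was the same throughout. The number of genes called was less stable. Against 1175 called, 558 higher, 617 lower and 419 at least 2-fold, DESeq2 gave 2155, 991, 1164 and 577, RLE scaling 1192, 552, 640 and 420, and limma-voom 1091, 503, 588 and 381. A fit of all 36 libraries gave 522, 249, 273 and 256. A fit of only the 6 libraries compared gave 650, 274, 376 and 340, and no filter on low counts gave 707, 304, 403 and 326. With 1 library left out the counts ran from 363 to 1065 called, 166 to 461 higher, 197 to 604 lower and 219 to 433 at least 2-fold. The cause of these moves was not tested. Of the calls, 1154 were shared with DESeq2, 1052 with limma-voom and 430 with the fit of all 36 libraries.

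Differences between lines numbered 629 against MIA PaCa-2 and 219 against PANC-1. They were 593 and 235 with RLE scaling and 391 and 155 without a filter. With 1 library of BxPC-3 left out they ran from 353 to 502 and from 116 to 163.

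The replicate numbers of the titles were checked for pairing. Libraries of 3A4 and GW3965 with the same number deviated from their group means with correlations of 0.0247, 0.0922 and 0.123 across genes. Those with different numbers had correlations of -0.134 to 0.0414. The labels do not state a pairing, and the main fit did not treat the libraries as paired. For 5 of 6 libraries the best match had the same number, a hint from the data and not the design. Over all pairs of BxPC-3 groups in the fit, correlations were 0.0215 to 0.229 for the same number and -0.146 to 0.064 for different numbers. The fit with the replicate block called 2556 genes, 1247 higher, 1309 lower and 630 at least 2-fold. It called 1090 differences from MIA PaCa-2 and 403 from PANC-1. UPK3BL1 lost its call under the block.

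At 3 libraries a side and a median SE of 0.20 log2 units, a 2-fold change was recovered in 56% of simulated cases, and a gene that was not called is not shown to be equal.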

Other observations

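Genes outside the lists were grouped after their values had been seen, so these groups carry no test of their own, and each adjusted p is from edgeR's quasi-likelihood test over all 18042 genes. Guanylate-binding proteins, known targets of interferon gamma, were higher with 3A4 in part. GBP4 had 39.1, 51.6 and 54.96 CPM with 3A4, against 18.8, 23.3 and 15.9 CPM with GW3965 (log2 fold change 1.33, adjusted p = 0.00416), and GBP5 a log2 fold change of 2.35 (adjusted p = 0.0108). IDO1, the tryptophan-degrading enzyme that interferon gamma is also known to induce, had 16.4, 12.7 and 19.1 CPM with 3A4, against 2.14, 3.93 and 3.88 CPM with GW3965 (log2 fold change 2.28, adjusted p = 0.00136). The groups of GBP4 and IDO1 did not overlap. GBP4 had 65.6, 64.1 and 68.9 CPM with DMSO, above every 3A4 library. Its log2 fold changes were -0.45 for 3A4 over DMSO (adjusted p = 0.361) and -1.77 for GW3965 over DMSO (adjusted p = 0.00306). Those of IDO1 were 0.48 for 3A4 over DMSO (adjusted p = 0.466) and -1.79 for GW3965 over DMSO (adjusted p = 0.0098). GBP4 lost its call in 1 fit of all 36 libraries (adjusted p up to 0.0784). GBP1, GBP2 and GBP3, at 0.65, 0.33 and 0.29, were not called.

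Squamous genes beyond the keratin list were mixed. The mucosal keratin KRT4 had 75.3, 89.9 and 102 CPM with 3A4, against 313, 428 and 504 CPM with GW3965 (log2 fold change -2.22, adjusted p = 0.00156). ZNF750, an epidermal transcription factor, had 2.64, 3.67 and 3.98 CPM with 3A4, against 10.2, 15.6 and 13.97 CPM with GW3965 (log2 fold change -1.95, adjusted p = 0.000618). Every 3A4 library was lower for both, and SPRR1A (-2.03), the sulfotransferase SULT2B1 (-2.15) and the transglutaminase TGM1 (-1.49) were also called lower. IVL (-1.13), SPRR1B (-0.26), SPRR3 (-0.41) and KRT13 (-0.18) were not called, and ALOXE3, which is also epidermal, was higher. ZNF750 lost its call in 1 fit of all 36 libraries (adjusted p up to 0.121). SPRR1A lost its call without 3A4 replicate 1 or 2 or GW3965 replicate 3 (adjusted p up to 0.0816). SULT2B1 lost its call without 3A4 replicate 1 or 2 or GW3965 replicate 2 or 3 (adjusted p up to 0.083). TGM1 lost its call without 3A4 replicate 1, 2 or 3 or GW3965 replicate 2 or 3 (adjusted p up to 0.186).

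Several genes better known from leukocytes were higher with 3A4 beside CD69. PIK3CG, the gamma catalytic subunit of phosphoinositide 3-kinase, had 15.5, 15.01 and 12.6 CPM with 3A4, against 1.84, 2.51 and 2.47 CPM with GW3965 (log2 fold change 2.66, adjusted p = 0.000139). TNFRSF9, the receptor 4-1BB, had 20.02, 9.87 and 9.25 CPM with 3A4, against 3.46, 2.13 and 2.42 CPM with GW3965 (log2 fold change 2.28, adjusted p = 0.00577), and SLAMF9 had a log2 fold change of 1.97. The 3A4 libraries of both PIK3CG and TNFRSF9 were higher throughout. The pan-leukocyte gene PTPRC had 0 counts in all 6 libraries, while the macrophage gene CD68 had 18.3 to 21.7 CPM with 3A4 and 6.50 to 12.9 CPM with GW3965 (adjusted p = 0.0502). CD14, of monocytes, had 2.98 to 3.77 CPM with 3A4 and 2.18 to 3.08 CPM with GW3965 (adjusted p = 0.288). The T cell gene CD3E had 0.28 to 0.671 CPM with 3A4 and 0 to 1.06 CPM with GW3965, and the part of such cells in these values was not tested. Glycosyltransferases were also among the calls, with GALNT12 (0.93, adjusted p = 0.000618) higher beside B3GALT5 and FUT8, and the sialyltransferase ST6GAL1 (-0.73, adjusted p = 0.0299) lower, while FUT2, GCNT3 and B3GNT3 were not called. SLAMF9 lost its call without 3A4 replicate 3 or GW3965 replicate 2 (adjusted p up to 0.0693). ST6GAL1 lost its call without 3A4 replicate 1, 2 or 3 or GW3965 replicate 1 or 2 (adjusted p up to 0.279).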
